A study of Rattus norvegicus with 6 samples.

Results

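The genes described here are 39 listed genes of glycolysis and the response to low oxygen, read in cultured oligodendrocyte progenitors (OPCs) of the rat, the cells that divide and mature into the myelin-making oligodendrocytes. They were taken by gene symbol, with the brightest probe set that names a single gene, and 38 of the 39 were measured among 13949 genes on the arrays. Ca9 carries the rat symbol Car9 on this array and was read under it, and Hk1 was not analysed here. RNA came from 3 samples of OPCs stimulated with fibrinogen for 12 h and from 3 of unstimulated OPCs, named control, which the titles place at 12 h too. Fibrinogen is the clotting protein of blood plasma, which reaches nervous tissue where vessels leak. Both groups came from newborn rat pups and shared the same medium, with N2, B27, NT3, PDGF and antibiotics. The fibrinogen dose and the oxygen level of the cultures were not given in the sources used here, and no source says that the replicates were separate cell preparations, so the p-values reflect nothing but sample-to-sample spread, which may be technical.

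Glycolysis turns glucose into pyruvate, and lactate dehydrogenase can turn pyruvate into lactate in place of its use by mitochondria. Oligodendrocytes are known for releasing lactate that axons use as fuel. Oxygen reaches this pathway through the hypoxia-inducible factors (HIFs): prolyl hydroxylases encoded by the Egln genes mark the HIF alpha proteins for destruction when oxygen is present, and in low oxygen the surviving HIF alpha proteins switch on many genes of glycolysis, together with Vegfa, Egln3 and others. HIF binds DNA at a short core, ACGTG or GCGTG, and the sequence CACGTG, an E-box bound by other basic helix-loop-helix factors, contains the first of these. The arrays measured RNA only, and HIF alpha is mainly controlled as protein.

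The promoters of Pfkfb3, Pdk2 and Hif1a are shown because all 3 genes rose with fibrinogen and all 3 hold the E-box CACGTG, and that of Ldha because it holds the same letters and its gene did not pass the test. Each sequence is the 250 bases before the start of the gene in RefSeq, build GRCr8, read 5′ to 3′ on the strand of the gene. Capitals mark ACGTG or GCGTG on either strand, and the 2 overlapping matches of ACGTG on opposite strands make CACGTG.
Pfkfb3 promoter, chr17:71944683-71944932, plus strand: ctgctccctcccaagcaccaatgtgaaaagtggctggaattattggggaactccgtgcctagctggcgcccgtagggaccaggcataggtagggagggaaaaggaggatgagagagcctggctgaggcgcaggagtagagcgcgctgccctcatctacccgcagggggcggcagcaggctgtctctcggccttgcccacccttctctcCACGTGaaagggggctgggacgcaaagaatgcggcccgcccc
Pdk2 promoter, chr10:80483913-80484162, minus strand: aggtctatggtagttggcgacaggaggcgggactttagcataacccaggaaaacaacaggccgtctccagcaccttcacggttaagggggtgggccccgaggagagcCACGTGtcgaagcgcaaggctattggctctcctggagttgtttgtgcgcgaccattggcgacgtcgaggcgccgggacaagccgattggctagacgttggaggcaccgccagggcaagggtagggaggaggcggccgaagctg
Hif1a promoter, chr6:98359648-98359897, plus strand: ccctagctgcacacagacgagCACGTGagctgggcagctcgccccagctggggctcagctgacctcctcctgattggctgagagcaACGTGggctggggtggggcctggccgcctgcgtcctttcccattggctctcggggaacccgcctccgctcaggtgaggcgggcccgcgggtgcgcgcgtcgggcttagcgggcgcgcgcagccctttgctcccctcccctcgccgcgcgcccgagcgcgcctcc
Ldha promoter, chr1:106507842-106508091, plus strand: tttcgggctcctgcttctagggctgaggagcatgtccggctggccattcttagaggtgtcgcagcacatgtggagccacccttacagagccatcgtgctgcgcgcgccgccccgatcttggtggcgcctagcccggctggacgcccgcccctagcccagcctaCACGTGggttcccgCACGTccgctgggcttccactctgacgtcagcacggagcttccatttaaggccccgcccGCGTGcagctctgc
In Pfkfb3 the E-box spans bases 209 to 214 of the sequence shown, in Pdk2 bases 108 to 113 and in Hif1a bases 22 to 27. Hif1a has a further ACGTG at bases 87 to 91, and Ldha has its E-box at bases 164 to 169, a further ACGTG on the other strand and 1 GCGTG.

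Among the 34 measured members with a promoter in the table, 19 held ACGTG or GCGTG (55.9%), against 47.9% of the 11489 promoters of genes on the array. The E-box was present in 7 of the 34 members, against 7.07% of those promoters. Of the 4 genes that rose and had a promoter in the table, the 3 shown held it, and Egln3 held neither core nor E-box in these 250 bases. No promoter was available for Gpd1, which rose the most. The other members with the E-box were Ldha, Slc16a1, Bnip3 and Ankrd37, none of which passed the test. GGCGCC, a sequence that Smad proteins of the BMP pathway can bind, was found in 6 of the 34 members and in 13.7% of the promoters of genes on the array, and among the genes that rose in Pfkfb3 and Pdk2. Such a match is a description of letters in a window, not a binding site.

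Fibrinogen was followed by higher RNA of a few regulators and side branches of glycolysis. None of the 15 measured enzymes of the chain from glucose to lactate had a called change, and Hk1 was not among them. Each gene was tested in limma against its own spread between arrays, drawn towards a value common to all genes. The p-values were adjusted by Benjamini-Hochberg over all 13949 genes. At a threshold of 0.05, 5 of the 38 measured members rose and 0 fell. Over all genes, 3.1% passed, of which 1.81% rose and 1.29% fell, each as a share of all genes. The 5 were Gpd1, Egln3, Pfkfb3, Pdk2 and Hif1a. Without adjustment, p was under 0.05 for 10 members that were higher and 2 that were lower, against 8.12% higher and 7.46% lower over all genes. The median log2 change of the 38 members was 0.04, beside 0.00 over all genes tested, and 22 members had a positive change, 15 a negative one and 1 a change of 0.00.

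**Figure D1:**
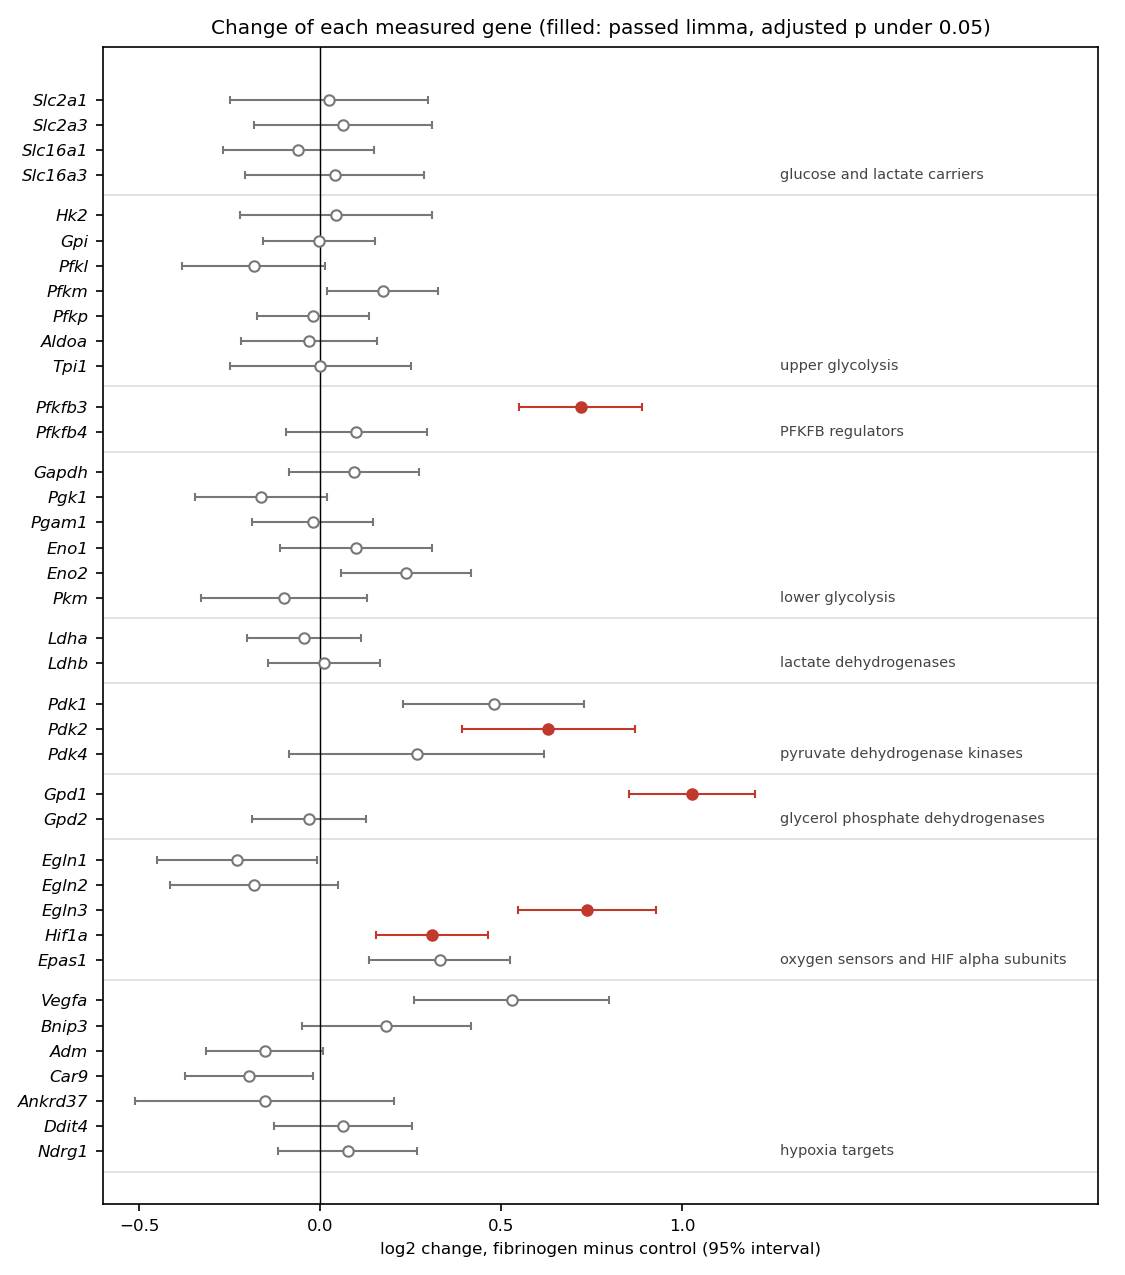
Log2 change (fibrinogen minus control, horizontal axis) of the 38 measured genes in groups by role, with 95% intervals from limma. The 5 filled points passed at an adjusted p under 0.05 and lie between 0.31 and 1.03, while the points of the glycolytic enzymes and lactate dehydrogenases lie between -0.18 and 0.24.

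The level of a gene is the log2 brightness of its probe set, and levels of different genes cannot be compared as amounts. The median gene stood at a log2 level of 6.85 to 6.89 on the 6 arrays. Background was read from 955 odorant and pheromone receptor genes, whose 95th percentile was 5.51 (the receptor percentile below), and 35 of the 38 members lay above it (Pgam1, Pdk4 and Car9 lay below). The array fibrinogen 2 stood apart, since its genes deviated from their group mean with an SD of 0.146, against 0.114 and 0.110 for fibrinogen 1 and 3 and 0.0862 to 0.0939 for the controls. Among markers of OPCs, the mean log2 level of all 9 was 9.96 to 10.08 with fibrinogen against 10.22 to 10.31 in controls. Of the 9, 4 fell (Pdgfra, Cspg4, Gpr17 and Neu4). That count was 2 with all probe sets fitted together, 2 without control 1, fibrinogen 1 or fibrinogen 2, and 1 without control 2 or control 3. The OPC markers Sox10, Olig1, Ptprz1, Vcan and Tnr had overlapping groups, with log2 changes of -0.05, -0.07, -0.03, -0.11 and -0.13. Among astrocyte markers, the mean log2 level of all 10 was 8.18 to 8.28 with fibrinogen against 7.77 to 7.89 in controls. Of the 10, 3 rose (Gfap, Slc1a2 and Ndrg2), with log2 changes of 1.24, 0.65 and 0.96. That count was 3 to 5 under the alternatives, 5 with either filter on dim genes. S100b, Fgfr3, Slc1a3 and Aldoc did not pass, but their groups did not overlap, with log2 changes of 0.46, 0.30, 0.23 and 0.21. Of the 10, 7 were higher at an unadjusted p under 0.05 in limma and 0 lower, against 8.12% and 7.46% of all genes. Aqp4 and Gja1 had changes of 0.01 and -0.04 with overlapping groups, and Gjb6 lay below the receptor percentile. The part of these shifts in the changes given below was not tested, and in such bulk samples more cells of a type and more RNA per cell cannot be told apart. None of the markers of microglia (12 measured), neurons (12), endothelium (6) or pericytes and fibroblasts (8) passed in limma. Without adjustment, p was under 0.05 for 2 neuronal markers that were higher. It was so for 1 marker of pericytes and fibroblasts that was lower, and for 0 of the other 2 lists. The neuronal markers had their highest mean log2 level on fibrinogen 2, at 7.82 against 7.59 to 7.68 on the other arrays. Fibrinogen 2 was the highest of the 6 arrays for 7 of these 12 markers and the lowest for 4. The part of this difference in the values of fibrinogen 2 was not tested.

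The largest change among the members was that of Gpd1, the cytosolic glycerol-3-phosphate dehydrogenase, which draws a glycolytic intermediate off towards glycerol lipids and passes electrons of NADH on to mitochondria. Its log2 level was 7.55, 7.38 and 7.56 on the fibrinogen arrays and 6.5, 6.49 and 6.42 on the control arrays. All fibrinogen arrays lay above all controls, by far more than the spread within either group. The log2 change was 1.03 ± 0.08 (SE, adjusted p = 0.000523, limma), a 2.04-fold rise, and it ranked 17 among all genes by size of increase. Its mitochondrial partner in the glycerol phosphate shuttle, Gpd2, had 7.03, 7.15 and 7.10 with fibrinogen against 7.14, 7.15 and 7.08 in controls. These groups overlapped, and the log2 change was -0.03 (95% interval -0.19 to 0.13). Within arrays, the change of Gpd1 exceeded that of Gpd2 by 1.06 ± 0.09 (SE) with no overlap of the groups. This pair was chosen after the values were seen, and its separation follows from the change of Gpd1 itself.

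Pfkfb3 rose as well. It encodes an enzyme that makes fructose-2,6-bisphosphate, the strongest activator of phosphofructokinase, and its RNA is a known target of HIF. Its log2 level was 8.39, 8.26 and 8.21 with fibrinogen against 7.60, 7.58 and 7.52 in controls. The groups lay well apart, with a log2 change of 0.72 ± 0.07 (SE, adjusted p = 0.00215, limma) and a 1.65-fold rise. Pfkfb4, a related enzyme of the same family and also a known HIF target, had 6.84, 7.0 and 6.88 with fibrinogen against 6.94, 6.78 and 6.70 in controls. These values overlapped, and the log2 change of 0.10 did not pass (95% interval -0.09 to 0.29, adjusted p = 0.656, limma). The change of Pfkfb3 exceeded that of Pfkfb4 by 0.62 ± 0.10 (SE), in a pair also chosen after the values were seen.

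Pyruvate dehydrogenase kinases switch off pyruvate dehydrogenase and so keep pyruvate out of the mitochondrial cycle, and 1 of the 3 members rose. Pdk2, a widely expressed form, had a log2 level of 8.62, 8.94 and 8.74 with fibrinogen against 8.0, 8.13 and 8.28 in controls. The groups did not overlap, and the log2 change was 0.63 ± 0.10 (SE, adjusted p = 0.0168, limma). Its call was lost without control 1 (adjusted p = 0.0725, limma) or control 2 (adjusted p = 0.0729, limma). Pdk1, the form best known as a HIF target, had 7.60, 7.57 and 7.75 with fibrinogen against 6.92, 7.26 and 7.30 in controls. The groups did not overlap here either, with control 1 the lowest, but the log2 change of 0.48 ± 0.11 (SE) missed the threshold (adjusted p = 0.0579, limma). It passed in 5 of 14 processing alternatives, among them both that left dim genes out. Pdk4, which rises in fasting in other tissues, had 5.06, 5.38 and 5.30 with fibrinogen against 4.67, 5.31 and 4.96 in controls. These groups overlapped near background, and the log2 change of 0.27 had a 95% interval from -0.09 to 0.62. The changes of Pdk2 and Pdk1 differed by 0.15 ± 0.14 (SE) and overlapped. Pdk3, the remaining kinase of the family and not among the members, had 8.35, 8.18 and 8.31 with fibrinogen against 8.39, 8.47 and 8.4 in controls. Every fibrinogen array lay below every control, and the log2 change of -0.14 did not pass (adjusted p = 0.424, limma).

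**Figure D2:**
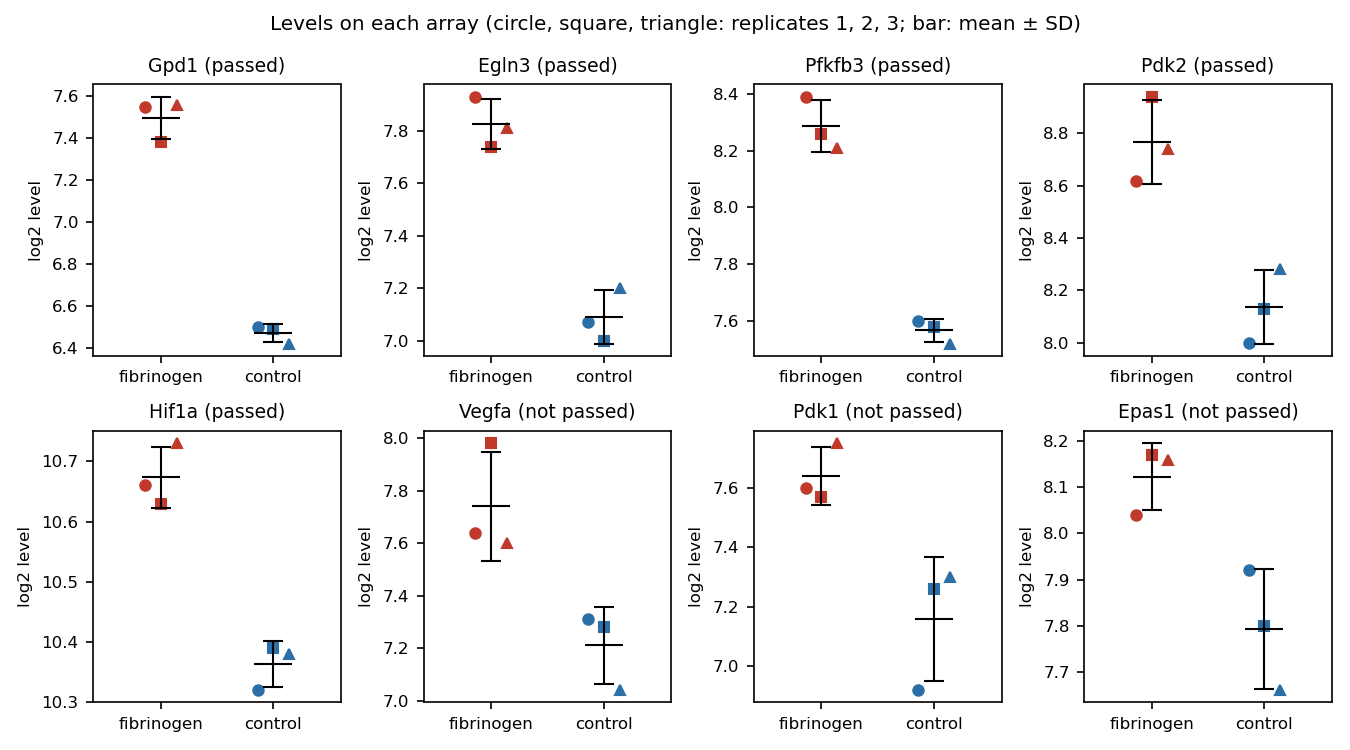
Log2 level on each array (vertical axis) of the 5 genes that passed and of Vegfa, Pdk1 and Epas1, which did not, with fibrinogen left and control right in each panel; bars are the mean ± SD of 3 arrays. In all 8 panels the fibrinogen arrays lie above the controls without overlap, with Gpd1 the widest apart at 1.03.

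Among the oxygen sensors and HIF alpha subunits, 2 of 5 rose and 0 fell. Egln3, a prolyl hydroxylase that is itself a strong HIF target in many cells, had a log2 level of 7.93, 7.74 and 7.81 with fibrinogen against 7.07, 7.0 and 7.20 in controls. The groups lay well apart, with a log2 change of 0.74 ± 0.08 (SE, adjusted p = 0.00315, limma) and a 1.67-fold rise. The other two prolyl hydroxylases had lower means with fibrinogen and did not pass. Egln1, the main oxygen sensor of most cells, had 7.93, 7.65 and 7.67 with fibrinogen against 8.10, 7.94 and 7.90 in controls. Its groups overlapped through fibrinogen 1, the log2 change was -0.23 ± 0.10 (SE, adjusted p = 0.297, limma), and a second probe set of the gene gave 0.10. Egln2 had 7.93, 7.62 and 7.89 with fibrinogen against 8.13, 7.92 and 7.94 in controls, with a log2 change of -0.18 (adjusted p = 0.446, limma). Its groups overlapped too. The change of Egln3 exceeded those of Egln1 and Egln2 by 0.97 ± 0.11 and 0.92 ± 0.11 (SE) with no overlap of the groups. Both pairs were chosen after the values were seen, and their separation follows mainly from the change of Egln3.

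Hif1a, the HIF alpha subunit found in most cells, had a log2 level of 10.66, 10.63 and 10.73 with fibrinogen against 10.32, 10.39 and 10.38 in controls. The 2 groups were tight and separate, and the log2 change of 0.31 ± 0.07 (SE) passed just inside the threshold (adjusted p = 0.0490, limma), a 1.24-fold rise. The call held in 6 of 14 alternatives, and those that ended it included adjusted p-values in limma of 0.0580 after centring each array on its median, 0.0704 with all probe sets fitted together, 0.113 and 0.141 when fibrinogen 1 or 3 was left out, and 0.185, 0.164 and 0.155 when control 1, 2 or 3 was. Epas1, which encodes HIF-2 alpha, had 8.04, 8.17 and 8.16 with fibrinogen against 7.92, 7.80 and 7.66 in controls. The groups did not overlap, but the log2 change of 0.33 ± 0.09 (SE) did not pass (adjusted p = 0.0873, limma). The change of Epas1 exceeded that of Hif1a by 0.02 ± 0.10 (SE), within the error.

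The 7 hypoxia targets had changes of both signs, and none passed. Vegfa, the growth factor for blood vessels, was the highest, with a log2 level of 7.64, 7.98 and 7.60 with fibrinogen against 7.31, 7.28 and 7.04 in controls. Its groups did not overlap, with fibrinogen 2 the highest, and the log2 change of 0.53 ± 0.12 (SE) missed the threshold (adjusted p = 0.0531, limma) and was 0.41 without fibrinogen 2. It passed in 5 of 14 alternatives. Bnip3, a mitophagy receptor, had a log2 change of 0.18, Ddit4, an inhibitor of mTORC1, of 0.06, and Ndrg1, a stress-induced protein that myelinating cells need, of 0.08, each with overlapping groups. The vasodilator peptide gene Adm had 6.53, 6.64 and 6.63 with fibrinogen against 6.70, 6.75 and 6.81 in controls, which did not overlap, and a log2 change of -0.15 (adjusted p = 0.348, limma). Car9, a carbonic anhydrase that is among the most HIF-dependent genes in human tumours, lay near background, with 5.42, 5.30 and 5.38 with fibrinogen against 5.66, 5.57 and 5.46 in controls. Its groups did not overlap, and its log2 change of -0.20 did not pass (adjusted p = 0.265, limma). Ankrd37 was the most variable, with 6.17, 6.03 and 6.71 with fibrinogen against 6.55, 6.39 and 6.43 in controls.

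A wider list held 31 further measured HIF targets, of which 22 lay above the receptor percentile. It gave 0 calls in either direction in limma and a median log2 change of -0.02. At an unadjusted p under 0.05 in limma, 5 were higher and 3 lower, against 8.12% and 7.46% of all genes. In 7 every fibrinogen array lay above every control and in 4 below, against 10.7% and 10.6% of all genes. The largest change of the list was that of Bhlhe40, a transcriptional repressor, with 7.98, 8.23 and 8.18 with fibrinogen against 7.84, 7.62 and 7.43 in controls. These groups did not overlap, and the log2 change of 0.50 ± 0.11 (SE) missed the threshold (adjusted p = 0.0579, limma). The count of this list was 2 with either filter on dim genes and 3 with array weights, and the alternatives gave 0 to 3. Of 15 other components of the HIF pathway, such as Vhl and Arnt, 0 passed and 0 had an unadjusted p under 0.05, with log2 changes from -0.11 to 0.08.

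The enzymes of the main chain gave no call. Of the 15 measured glycolytic enzymes and lactate dehydrogenases, 0 rose and 0 fell in limma, and without adjustment p was under 0.05 for 2 that were higher and 0 that were lower. Their log2 changes ran from -0.18 to 0.24 with a median of 0.00, and the 95% intervals of the 14 that lay above the receptor percentile (all but Pgam1) fell between -0.38 and 0.42, that is, between 0.768-fold and 1.33-fold of the control level.

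The 3 phosphofructokinase genes encode subunits of the enzyme that commits sugar to glycolysis, named for muscle (Pfkm), liver (Pfkl) and platelets (Pfkp). Pfkm had a log2 level of 8.04, 8.05 and 8.06 with fibrinogen against 7.90, 7.92 and 7.81 in controls, and Pfkl had 7.64, 7.40 and 7.66 with fibrinogen against 7.73, 7.80 and 7.72 in controls. Pfkm lay higher and Pfkl lower on every fibrinogen array, with log2 changes of 0.17 (adjusted p = 0.257, limma) and -0.18 (adjusted p = 0.359, limma). Pfkp had 8.56, 8.5 and 8.61 with fibrinogen against 8.61, 8.56 and 8.56 in controls, which overlapped. The change of Pfkm exceeded that of Pfkl by 0.36 ± 0.09 (SE) with no overlap of the groups. This pair was chosen after the values were seen, and its separation follows from those of the 2 genes. Hk2, an inducible hexokinase and the only one of the 2 listed that was measured, had a log2 change of 0.04 (95% interval -0.22 to 0.31), and Gpi, Aldoa and Tpi1, which carry sugar phosphates on to the triose stage, had changes of 0.00, -0.03 and 0.00.

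In the later steps of the pathway, Eno2, the enolase best known from neurons, had the largest change. Its log2 level was 8.01, 7.87 and 8.05 with fibrinogen against 7.82, 7.67 and 7.73 in controls. The groups did not overlap, and the log2 change of 0.24 ± 0.08 (SE) missed the threshold (adjusted p = 0.180, limma). Eno1, the common enolase, had a change of 0.10, and its 3 probe sets gave 0.09 to 0.11. Pgk1, a classic HIF target that makes ATP, had a change of -0.16 (adjusted p = 0.383, limma), Pgam1 of -0.02 and Pkm of -0.10. Gapdh had a change of 0.09, but its 16 probe sets ran from -0.08 to 0.10 and 12 of them were negative, and Gapdh has near-identical copies in the genome that its probe sets may also read. Ldha, the lactate dehydrogenase subunit that HIF induces, had 12.61, 12.57 and 12.56 with fibrinogen against 12.68, 12.64 and 12.55 in controls. Ldhb had 10.60, 10.68 and 10.59 with fibrinogen against 10.59, 10.66 and 10.59 in controls. Both pairs of groups overlapped, with log2 changes of -0.04 (95% interval -0.20 to 0.11) and 0.01 (95% interval -0.14 to 0.16).

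The carriers that bring glucose in and move lactate across the membrane did not pass either. Slc2a1, the main glucose carrier of glia, had a log2 change of 0.02 and Slc2a3, known from neurons, of 0.06, with 5.54, 5.44 and 5.84 on the fibrinogen arrays against 5.62, 5.46 and 5.55 in controls. The lactate carriers Slc16a1, which oligodendrocytes use, and Slc16a3, a HIF target, had changes of -0.06 and 0.04. All 4 carriers had overlapping groups. Of 23 measured further isoforms and carriers of the pathway 0 passed in limma, and without adjustment p was under 0.05 for 2 that were higher and 0 that were lower. Galm, an aldose epimerase, had the largest change at 0.27 (adjusted p = 0.302, limma), near background and with overlapping groups. Aldoc, also listed above as an astrocyte marker, had a change of 0.21 with no overlap of the groups (adjusted p = 0.244, limma).

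**Figure D3:**
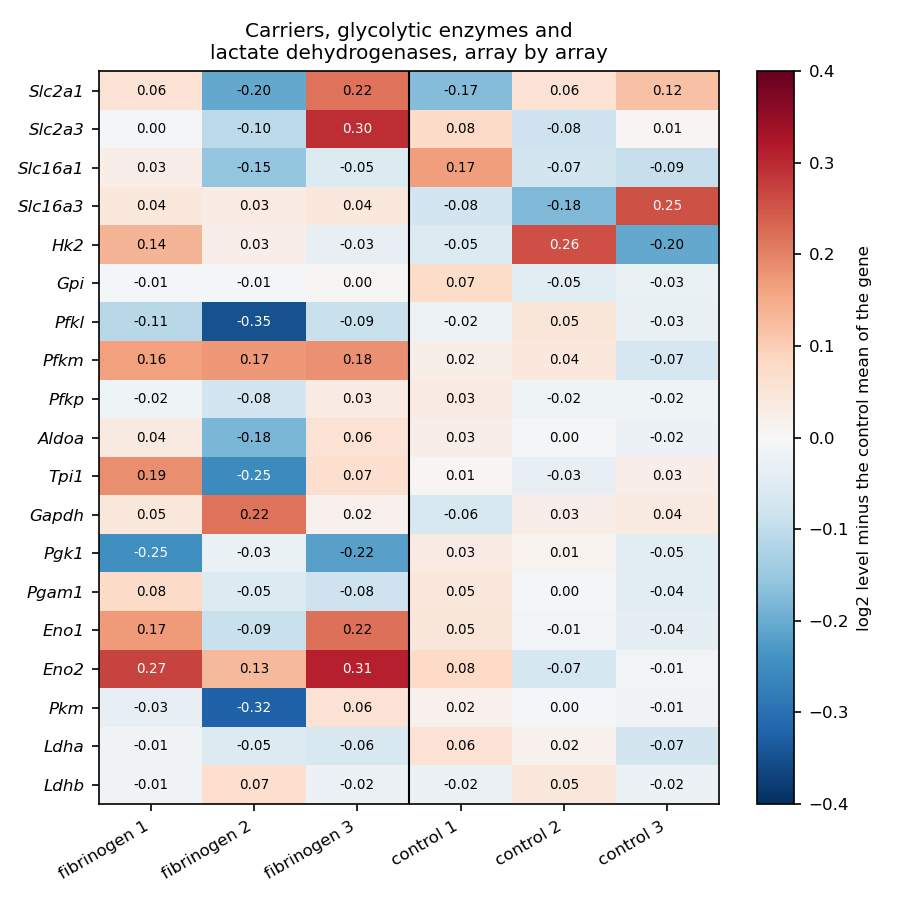
Log2 level of each carrier, glycolytic enzyme and lactate dehydrogenase on each array, minus the control mean of that gene (colour and printed value; rows are genes, columns arrays with fibrinogen left). Fibrinogen 2 is the lowest of the 6 arrays for 6 of the 15 enzymes. Pfkm, Eno2, Gapdh and Slc16a3 are above the control mean on all 3 fibrinogen arrays, and Pfkl, Pgk1 and Ldha are below it.

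The array fibrinogen 2 set some of these values. It was the lowest of the 6 arrays for 6 of the 15 enzymes and 3 of the 4 carriers, while it was the lowest for 24.9% of all genes. Without it, the log2 change of Pfkl was -0.10, that of Aldoa 0.05 and that of Tpi1 0.13. That of Eno1 was then 0.20, that of Eno2 0.29, that of Pkm 0.01 and that of Pgk1 -0.23. The remaining fibrinogen arrays of Pgk1, at 10.20 and 10.23, lay below the controls at 10.40 to 10.48. Slc2a1 and Slc2a3 had changes of 0.14 and 0.15, and the median of the 15 enzymes was 0.01. Among the other members, the change of Egln2 was then -0.087, that of Bnip3 0.07 and that of Ankrd37 -0.017.

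In 10 members every fibrinogen array lay above every control, namely Pfkm, Pfkfb3, Eno2, Pdk1, Pdk2, Gpd1, Egln3, Hif1a, Epas1 and Vegfa, and in 3 (Pfkl, Adm and Car9) every one lay below. Over all genes these shares were 10.7% and 10.6%. Related genes were also compared with each other within arrays, in 16 pairs chosen after the values were seen. The groups of 9 pairs did not overlap. The SE of each difference between paired genes came from that pair's 3 fibrinogen and 3 control values alone, not from limma. With 3 arrays against 3, the exact permutation test (two-sided) cannot give a p under 0.1, and the lowest value adjusted over the 16 pairs was 0.178, so no pair passed.

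**Figure D4:**
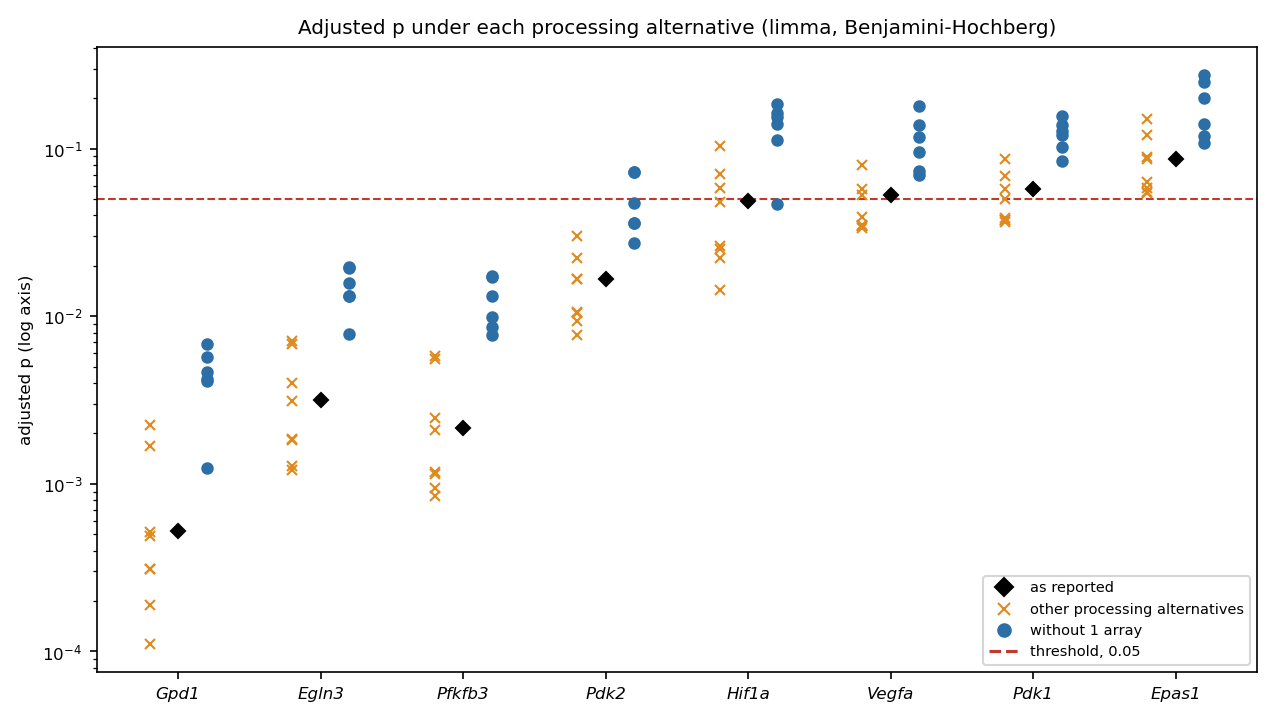
Adjusted p in limma (vertical, log axis) of the 8 genes of the plot of levels by array, as reported (diamonds), under other processing alternatives (crosses) and without 1 array (circles), with the threshold of 0.05 dashed. Gpd1, Egln3 and Pfkfb3 stayed below the line in all 14 alternatives, while Hif1a did so in 6.

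Gpd1, Egln3 and Pfkfb3 passed in every one of the 14 alternatives, with highest adjusted p-values of 0.00684, 0.0198 and 0.0174 in limma. Pdk2 passed in 12, Hif1a in 6, Pdk1 and Vegfa in 5 each, and the other members in none.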

How the data were processed

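RNA was amplified and labelled with NuGEN kits and hybridised to Affymetrix arrays, per the labels' protocols. The deposited log2 levels, 1 per probe set and array, were taken to be normalized by the authors with RMA, which the submitters' processing notes name together with limma, without versions or roles. The log2 scale was inferred from the deposited values, and the centring is unknown. RMA can compress changes of dim genes.

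Of 26312 probe sets 1206 were blank. Of the other 25106, 14700 had 1 gene symbol in the platform annotation, 275 several and 10131 none, and only the first were named. The brightest probe set of each gene gave 13949 genes. Of the named probe sets 14672 matched the RefSeq table of GRCr8 by Entrez ID, and 0 symbols changed. Olr1, which is no olfactory receptor, was left out of the receptor genes.

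Groups came from the sample titles. All genes were fitted in R 4.3.3 by lmFit and eBayes of limma 3.58.1, with two-sided tests and no covariates. At most 3.63% of values were identical between a pair of arrays. The procedure was tested on simulated data. The receptor percentile was used as a guide to background. The 16 pairs and the promoter search were added after values were seen, and the promoter window was shortened to the bases before the gene start after a first search. Alternatives were median centring, 2 filters on dim genes, all probe sets, their mean, a replicate block, array weights, trend and robust options and leaving out each array. The number of arrays limits the precision. All members are accounted for; those that passed and up to 3 others per role are given array by array, with Adm, Car9 and Ankrd37 added after their values were seen. Wider lists came from general knowledge. Members and lists were chosen with earlier results of these data known.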

Additional observations from a re-analysis of the deposited data

How the results depend on the processing

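The count of members that rose was 4 to 7 under the 8 alternatives that kept all arrays and 3 to 5 without 1 array, and 0 fell in any. The median log2 change of the members ran from 0.03 to 0.05 with all arrays and from 0.02 to 0.06 without 1. Over all genes 432 passed (252 higher, 180 lower), but 287 with all probe sets fitted together (109 lower) and 659 with array weights (383 higher, 276 lower). Without 1 array 151 to 436 passed, with 96 to 263 higher and 55 to 173 lower. Without control 1 or 2 only 3 members passed. Same-numbered arrays deviated together only weakly (r = 0.03, 0.02 and 0.01 over genes), although each correlated best with its own number, so the numbers were not taken as pairs; with the number as a block 315 genes (195 higher, 120 lower) and 6 members passed, Pdk1 and Vegfa joining (adjusted p = 0.0498 and 0.0347, limma) and Hif1a leaving (adjusted p = 0.104, limma), as did Phkb (adjusted p = 0.05003, limma), and 2 OPC markers fell in place of 4. A sign changed in 24 fits of 13 members, none past the threshold. Tpi1, with a change of 0.00 in the main fit, was not counted, and its change ran from -0.093 to 0.13 without 1 array. With array weights the log2 change was -0.000256 for Hk2, 0.0076 for Gpi, 0.0058 for Pfkp, 0.022 for Aldoa and -0.016 for Ldhb, after median centring it was -0.0033 for Ldhb, and with the mean of the probe sets -0.0081 for Gapdh. Without 1 array the changes ran from -0.073 to 0.14 for Slc2a1, -0.053 to 0.15 for Slc2a3, -0.11 to 0.023 for Slc16a1, -0.048 to 0.17 for Slc16a3, -0.058 to 0.17 for Hk2, -0.027 to 0.033 for Gpi, -0.047 to 0.0083 for Pfkp, -0.073 to 0.047 for Aldoa, -0.068 to 0.012 for Pgam1, -0.18 to 0.012 for Pkm, -0.018 to 0.033 for Ldhb and -0.058 to 0.0017 for Gpd2. The cause of these shifts was not tested. Genes under the receptor percentile (Pgam1, Pdk4 and Car9) were not tested under the filters on dim genes.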

Other observations

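In lists of neighbouring metabolism, 1 gene passed. Phkb, the beta subunit of phosphorylase kinase, which starts the breakdown of glycogen, had a log2 level of 7.82, 7.89 and 7.93 with fibrinogen against 7.45, 7.5 and 7.53 in controls. The groups lay apart, with a log2 change of 0.39 ± 0.07 (SE, adjusted p = 0.0219, limma), and the call was lost without control 1, 2 or 3 (adjusted p = 0.0990, 0.101 and 0.0841, limma) and without fibrinogen 3 (adjusted p = 0.0739, limma). Of 14 measured genes of glycogen and gluconeogenesis, 12 had a positive change, against 6761 of 13949 over all genes. Only 10 of the 14 lay above the receptor percentile, and some positive changes were near 0, such as 0.003 for Gyg1 and 0.007 for Fbp2. The median log2 change was 0.05, and 0.14 without fibrinogen 2, which was the lowest of the 6 arrays for 4 of the 14. Without adjustment p was under 0.05 for 4 that were higher and 1 that was lower. The lower one, named after its value was seen, was the glycogen branching enzyme Gbe1, with a change of -0.28 (adjusted p = 0.0978, limma).

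Of 17 measured genes listed for the tricarboxylic acid cycle, 14 of mitochondrial enzymes and 3 of cytosolic forms (Idh1, Aco1 and Mdh1), 0 passed in limma (at an unadjusted p under 0.05, 0 higher and 1 lower), but in 8 every fibrinogen array lay below every control, against 10.6% of all genes. Of these 8, 6 were mitochondrial and 2 cytosolic. The median log2 change was -0.09, and -0.07 without fibrinogen 2, which was the lowest of the 6 arrays for 11 of the 17. The largest change was that of Idh1, a cytosolic isocitrate dehydrogenase, with 10.90, 10.39 and 10.86 with fibrinogen against 11.16, 11.07 and 11.09 in controls. The log2 change was -0.39 ± 0.13 (SE, adjusted p = 0.176, limma), with fibrinogen 2 far below the others, and -0.23 without that array. Of 11 genes of pyruvate dehydrogenase and pyruvate entry 10 had a negative change, against 7031 of 13949 over all genes. In limma 0 passed (0 at an unadjusted p under 0.05), and Pdha1, the target of the Pdk kinases, had -0.20. Fibrinogen 2 was the lowest of the 6 arrays for 6 of the 11. Without it the median moved from -0.08 to -0.04, and Pdhb, Pdp1 and Mpc1 had positive changes of 0.008, 0.03 and 0.07. Pdha1 then had -0.098, and Dld and Pdp2 were lower at -0.14 and -0.12. Of 9 genes of the pentose phosphate pathway 0 passed in limma (at an unadjusted p under 0.05, 1 higher and 1 lower). Tkt had a change of -0.32, but -0.15 without fibrinogen 2, when Pgls had 0.26 and Rbks 0.19.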
